A study of Mus musculus with 6 samples.

Results

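The interleukin-1 system was followed here through 10 genes of 22274 in the deposited table. They are the cytokine genes Il1a, Il1b, Il18 and Il33, the receptor antagonist Il1rn, the receptor chains Il1r1, Il1rap and Il1rl1, and the inflammasome genes Nlrp3 and Casp1. The genes were picked by gene name with earlier results of the same contrast known, so their values are given as a description and carry no test. All 10 were found in the table and all 10 passed the low-count filter that left 13248 genes for testing. Casp1 and Nlrp3 reached the level of that filter only in the control libraries described below, the group where they were higher. In the first group, labelled prune2 konckdown, cells isolated from mouse kidney and labelled primary renal fibroblasts had received siRNA against Prune2. In the second group, labelled WT, the same kind of cells had received a scrambled negative-control siRNA. Each group had 3 RNA-seq libraries, and every culture in both groups had been treated with TGF-β at 5 ng/ml for 48 h, a cytokine that turns fibroblasts into matrix-producing myofibroblasts. None of the 6 libraries came from a culture without TGF-β, so an effect of TGF-β cannot be read from them. The labels give no mouse strain, age or siRNA sequence and do not say whether the libraries of a group came from separate isolations.

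Interleukin-1α and interleukin-1β are agonists that bind the receptor chain IL-1R1, which then recruits the accessory chain IL1RAP and signals through MyD88, IRAK kinases and TRAF6 to NF-κB. The product of Il1rn occupies IL-1R1 without recruiting the accessory chain and so blocks both agonists. Pro-interleukin-1β and pro-interleukin-18 are cut to their active forms by caspase-1, which inflammasomes such as that of NLRP3 activate, mainly in macrophages and other myeloid cells. Interleukin-33 instead binds ST2, the product of Il1rl1, and in the kidney this family is known for its part in sterile injury and fibrosis.

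Library totals ran from 20075265 to 23234797 counts. Prune2, the gene targeted by the siRNA, had 80, 73 and 104 counts in the Prune2 siRNA libraries, against 133, 157 and 150 in the control siRNA libraries. Its level fell to 3.801 ± 0.629 CPM (counts scaled to TMM-adjusted library sizes) in Prune2 siRNA cells, against 6.95 ± 0.775 CPM in control siRNA cells (SD, n = 3 each). The log2 fold change was -0.87 (SE 0.15, adjusted p = 0.000214, edgeR quasi-likelihood test with Benjamini-Hochberg adjustment), a call lost in both fits on FPKM. An exact two-sided permutation test gave p = 0.1, the smallest that 3 libraries against 3 allow. Of all genes tested, 10.3% were called at an adjusted p under 0.05, 4.46% as higher and 5.83% as lower in Prune2 siRNA cells. The fibroblast label was checked against marker genes. Dcn and Lum, which renal fibroblasts usually express, had at most 0.708 and 0.130 CPM in any library, and Pdgfra averaged 4.87 ± 0.439 CPM in Prune2 siRNA cells and 5.02 ± 0.904 CPM in control siRNA cells. The epithelial genes Cdh1 and Epcam averaged 997 ± 32.1 and 431 ± 17.2 CPM in Prune2 siRNA cells, against 1055 ± 26.4 and 428 ± 4.72 CPM in control siRNA cells. Thy1, another listed fibroblast gene, was low. It had 8, 13 and 13 counts in the Prune2 siRNA libraries, against 14, 15 and 8 in the control siRNA libraries. The listed fibroblast genes Vim and Col1a1 were well expressed. Vim averaged 395 ± 26.9 CPM in Prune2 siRNA cells, against 570 ± 31.2 CPM in control siRNA cells. Col1a1 averaged 204 ± 13.2 CPM in Prune2 siRNA cells, against 236 ± 3.42 CPM in control siRNA cells. Pdgfrb was near 20 CPM in both groups. The markers thus go only in part with the label, and no other cell type is assigned to the cells here.

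The agonist genes Il1a and Il1b lie next to each other in the same orientation on the minus strand of chromosome 2, at chr2:129299610-129309972 and chr2:129364570-129371139 (GRCm38, GENCODE M21), within a span of 71.5 kb. Il1r1 and Il1rl1 lie on the plus strand of chromosome 1, at chr1:40225080-40317257 and chr1:40429570-40465415. The other genes are also on the plus strand, with Il1rn at chr2:24336853-24351494, Il1rap at chr16:26581704-26730117, Il33 at chr19:29925114-29960718, Il18 at chr9:50554827-50581840, Casp1 at chr9:5298517-5307265 and Nlrp3 at chr11:59541568-59566956. In the deposited pathway annotation 8 of the 10 share the term cytokine-cytokine receptor interaction, and Il1b, Il18, Casp1 and Nlrp3 share NOD-like receptor signaling. The 250 bases before the start of Il1a, Il1b and Il1r1 (RefSeq, GRCm38.p6) are shown because Il1a and Il1b were both lower in Prune2 siRNA cells and the receptor of both was higher. Each is written 5′ to 3′ on the strand of its gene and ends at the base before the start, and capitals mark matches to the motifs listed next. The windows lie at chr2:129309973-129310222 (minus strand), chr2:129371140-129371389 (minus strand) and chr1:40224830-40225079 (plus strand).
Il1a: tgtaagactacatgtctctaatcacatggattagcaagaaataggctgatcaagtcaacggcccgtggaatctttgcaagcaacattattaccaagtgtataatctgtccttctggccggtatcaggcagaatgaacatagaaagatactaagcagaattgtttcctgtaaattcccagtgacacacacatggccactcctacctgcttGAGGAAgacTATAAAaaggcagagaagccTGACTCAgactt
Il1b: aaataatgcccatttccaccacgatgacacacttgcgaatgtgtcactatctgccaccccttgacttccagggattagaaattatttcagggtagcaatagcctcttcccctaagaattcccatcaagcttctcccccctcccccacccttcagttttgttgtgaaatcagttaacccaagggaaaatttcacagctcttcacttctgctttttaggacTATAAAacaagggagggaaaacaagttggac
Il1r1: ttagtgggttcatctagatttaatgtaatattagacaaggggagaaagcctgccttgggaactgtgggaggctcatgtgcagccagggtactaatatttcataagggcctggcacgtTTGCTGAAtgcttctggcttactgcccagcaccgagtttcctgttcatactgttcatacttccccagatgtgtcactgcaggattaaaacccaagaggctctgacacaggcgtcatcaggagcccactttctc

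Matches were searched on both strands for a TATA box (TATAAA), a PU.1 core (GAGGAA), an AP-1 site (TGANTCA), a C/EBP site (TTGCNNAA), an interferon-stimulated response element and a kappaB site. The Il1a window held a PU.1 core at bases -41 to -36, a TATA box at -32 to -27 and an AP-1 match at -12 to -6, counted back from the start. The Il1b window held a TATA box at -31 to -26 and no other match, and the first Il1r1 window held a C/EBP match at -133 to -126. A second Il1r1 window, not shown, held a kappaB match at -232 to -223 on the opposite strand. None of these matches overlapped another. Of 32851 promoter windows of the same length, 12.4% held the TATA box, 23.3% the PU.1 core, 6.75% the AP-1 match, 9.56% the C/EBP match, 2.98% the interferon-stimulated response element and 7.25% the kappaB site. The 10 genes have 16 such windows, of which 5 held a TATA box, 3 a PU.1 core, 2 an AP-1 match, 3 a C/EBP match, 2 a kappaB match and 0 the interferon-stimulated response element. Il1a and Il1b therefore share a TATA box at about the same distance from the start and none of the other motifs searched. A match is a description of these letters and not a measured binding site.

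The agonist transcripts were the most different of the set. Il1a, which encodes interleukin-1α, an alarmin released by damaged cells, had 12, 16 and 16 counts in the Prune2 siRNA libraries, against 139, 112 and 132 in the control siRNA libraries. On the CPM scale this is 0.649 ± 0.0722 in Prune2 siRNA cells and 6.04 ± 0.651 in control siRNA cells (SD, n = 3 each), a log2 fold change of -3.20 (SE 0.22). Every Prune2 siRNA library was below every control library, and the level was 9.20-fold lower. Il1b, the inducible agonist that inflammasomes mature, had 14, 10 and 21 counts in the Prune2 siRNA libraries, against 137, 161 and 183 in the control siRNA libraries. Its level was 0.665 ± 0.230 CPM in Prune2 siRNA cells and 7.56 ± 0.758 CPM in control siRNA cells, a log2 fold change of -3.49 (SE 0.22). The groups did not overlap for Il1b either, and its log2 fold change ranked 19 from the lowest among the 13248 genes tested. The ratio of Il1b to Il1a in CPM was 1.04 ± 0.362 in Prune2 siRNA cells and 1.27 ± 0.248 in control siRNA cells, with overlapping ranges of 0.625 to 1.31 and 0.986 to 1.44. In bulk RNA, fewer cells of a type and less RNA per cell cannot be told apart. A non-coding gene lies on the opposite strand at each locus (Gm14023 at Il1a and Il1bos at Il1b), and the strandedness of the counting is not given in the sources used here.

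**Figure D1:**
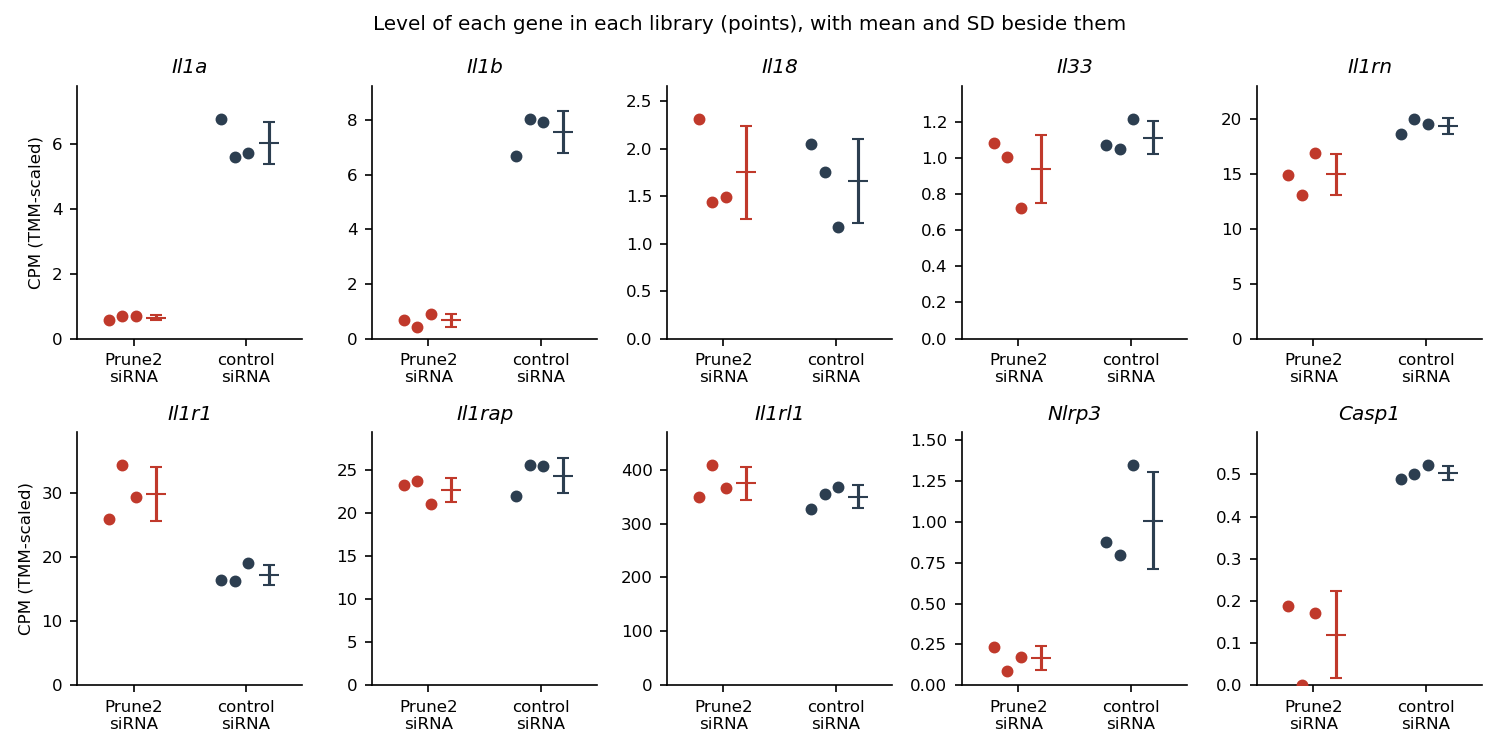
Level of each of the 10 genes in CPM in the 3 Prune2 siRNA libraries and the 3 control siRNA libraries (points), with the group mean and SD beside them; each panel has its own axis from 0. Il1a and Il1b sit under 1 CPM in all Prune2 siRNA libraries and above 5 CPM in all control siRNA libraries, whereas the points of Il18, Il33, Il1rap and Il1rl1 overlap between groups.

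The other cytokines of the set did not separate the groups. Il18, the other cytokine that caspase-1 matures, had 49, 33 and 35 counts in the Prune2 siRNA libraries, against 42, 35 and 27 in the control siRNA libraries, with a log2 fold change of 0.08 (SE 0.27). Its groups overlapped, with 1.75 ± 0.489 CPM in Prune2 siRNA cells and 1.66 ± 0.446 CPM in control siRNA cells, and Bco2 and Tex12, which overlap it on the opposite strand, held 150 and 0 counts in all libraries together. Il33, the nuclear alarmin that binds ST2, had 23, 23 and 17 counts in the Prune2 siRNA libraries, against 22, 21 and 28 in the control siRNA libraries, with a log2 fold change of -0.25 (SE 0.30). With errors of this size, differences in Il18 or Il33 well above the SE could go uncalled at this depth.

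Il1rn, the receptor antagonist, was much more abundant than either agonist and differed far less. It had 316, 300 and 396 counts in the Prune2 siRNA libraries, against 382, 401 and 450 in the control siRNA libraries. Its level was 14.97 ± 1.91 CPM in Prune2 siRNA cells and 19.4 ± 0.705 CPM in control siRNA cells, a log2 fold change of -0.37 (SE 0.09). In CPM the groups did not overlap. In deposited FPKM, which divides fragments by transcript length and by library size, they did overlap, with 14.55, 9.08 and 14.44 in the Prune2 siRNA libraries and 16.57, 10.23 and 19.90 in the control siRNA libraries.

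Per length, the antagonist exceeded the sum of the agonists in every library. The summed FPKM of Il1a and Il1b was 0.823 ± 0.179 in Prune2 siRNA cells and 8.61 ± 0.249 in control siRNA cells (SD, n = 3 each). Il1rn over that sum was 18.65, 13.55 and 14.16 in the Prune2 siRNA libraries and 1.99, 1.17 and 2.27 in the control siRNA libraries. The ratio, which is one of transcripts and not of proteins, thus stood at 13.55 or more in every Prune2 siRNA library and at 2.27 or less in every control siRNA library. Its denominator differed more than its numerator, whose FPKM overlapped between groups.

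Il1r1, the signalling receptor of both agonists, was the only gene of the set whose level in every Prune2 siRNA library was above that in every control siRNA library. It had 548, 785 and 686 counts in the Prune2 siRNA libraries, against 334, 325 and 438 in the control siRNA libraries. Its level was 29.8 ± 4.22 CPM in Prune2 siRNA cells and 17.2 ± 1.59 CPM in control siRNA cells, a 1.73-fold difference (log2 fold change 0.79, SE 0.09). The lowest Prune2 siRNA library, at 25.9 CPM, stood above the highest control siRNA library, at 19.0 CPM.

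Il1rap, the accessory chain shared by the receptors for interleukin-1, interleukin-33 and interleukin-36, had 493, 546 and 494 counts in the Prune2 siRNA libraries, against 451, 512 and 588 in the control siRNA libraries. Its groups overlapped and its log2 fold change was -0.10 (SE 0.07). In FPKM the ratio of Il1r1 to Il1rap was 1.18 ± 0.144 in Prune2 siRNA cells, with a range of 1.01 to 1.29, and 0.641 ± 0.0604 in control siRNA cells, with a range of 0.571 to 0.679. The signalling chain was thus above the accessory chain in each Prune2 siRNA library and below it in each control siRNA library.

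Il1rl1, which encodes ST2 as a membrane receptor and as a shorter soluble decoy, was the most abundant transcript of the set in both groups. It had 7408, 9354 and 8566 counts in the Prune2 siRNA libraries, against 6687, 7095 and 8471 in the control siRNA libraries. The corresponding levels were 375 ± 30.2 CPM in Prune2 siRNA cells and 350 ± 21.2 CPM in control siRNA cells, with overlapping groups and a log2 fold change of 0.10 (SE 0.05). Its mean level lay above that of 97.2% of the genes tested, while its ligand Il33 stood between 0.726 and 1.22 CPM.

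Count divided by FPKM and library size gives the transcript length that the deposited values imply, which for 359 genes with a single annotated transcript had a median ratio of 1.0 to the annotated length. For Il1rl1 the implied length was 3133 ± 85.0 bases in Prune2 siRNA cells and 3166 ± 79.2 bases in control siRNA cells. That lies between an annotated coding transcript of 2661 bases (Il1rl1-203) and those of 5053 and 5302 bases (Il1rl1-201 and Il1rl1-202), and nearer to the first. The groups overlapped, so no shift between short and long transcripts was seen between them. For Il1rn the implied length was 1028, 1438 and 1180 bases in the Prune2 siRNA libraries, against 1119, 1953 and 982 bases in the control siRNA libraries. It thus varied more between libraries of a group than between groups, which is where its CPM and FPKM part. For Il1r1 the implied length stayed between 4834 and 4852 bases in all libraries, close to the 4832 bases of Il1r1-202. For the targeted gene Prune2 it was 4492 ± 537 bases in Prune2 siRNA cells and 5874 ± 159 bases in control siRNA cells, and the groups did not overlap. The FPKM of Prune2 was 0.847 ± 0.0643 in Prune2 siRNA cells, against 1.18 ± 0.132 in control siRNA cells. The cause of this difference in implied length was not tested.

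**Figure D2:**
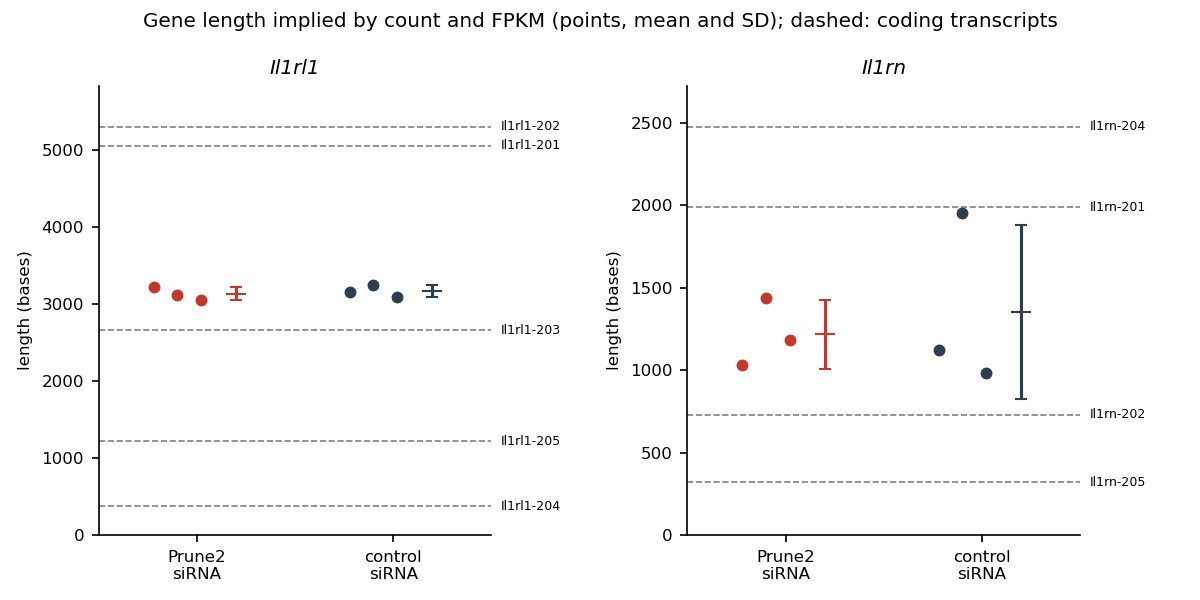
Transcript length in bases implied by count and FPKM for Il1rl1 and Il1rn in the 3 Prune2 siRNA libraries and the 3 control siRNA libraries (points, with mean and SD beside them); dashed lines mark annotated coding transcripts. Il1rl1 stays between 3053 and 3251 bases in all libraries, whereas Il1rn runs from 982 to 1953 bases with no separation of the groups.

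Nlrp3, the sensor that nucleates the best studied inflammasome, had 5, 2 and 4 counts in the Prune2 siRNA libraries, against 18, 16 and 31 in the control siRNA libraries. Its level was 0.165 ± 0.0745 CPM in Prune2 siRNA cells and 1.01 ± 0.296 CPM in control siRNA cells, a log2 fold change of -2.60 (SE 0.47). Casp1, the protease that cuts pro-interleukin-1β, had 4, 0 and 4 counts in the Prune2 siRNA libraries, against 10, 10 and 12 in the control siRNA libraries. Its log2 fold change was -2.04 (SE 0.61), and the count of 0 in Prune2 siRNA library 2 allows a level of up to 0.131 CPM (3 counts, counting error only). For both genes every Prune2 siRNA library was below every control library, but the summed counts were 11 and 8 in Prune2 siRNA cells, against 65 and 32 in control siRNA cells. Casp1 was not called in 7 of 13 alternative settings, among them the fits that left out any 1 control library or Prune2 siRNA library 2 or 3.

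Read together, 6 of the 10 genes had CPM that did not overlap between groups, against 24.3% of all genes tested, and 5 had FPKM that did not overlap, against 22.7% of all genes tested. The fit over all genes called 5 of them lower (Il1a, Il1b, Il1rn, Nlrp3 and Casp1) and 1 higher (Il1r1), beside the 10.3% of all genes called, and nothing is read from these counts because the same contrast was known when the genes were picked. Casp1 and Nlrp3, counted here, reached the level of the low-count filter in control siRNA libraries only. The median log2 fold change of the 10 genes was -0.31, against 0.00 over all genes tested.

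Ordered by FPKM in Prune2 siRNA cells, Il1rl1 stood first at 120.0, followed by Il1rn at 12.7, Il1r1 at 6.18, Il1rap at 5.25, Il18 at 2.03, Il1b at 0.493, Il33 at 0.370, Il1a at 0.330, Casp1 at 0.0900 and Nlrp3 at 0.0600. Within that order the ranges of Il1r1 and Il1rap, of Il1b and Il33, of Il33 and Il1a, and of Casp1 and Nlrp3 overlapped. In control siRNA cells the order was Il1rl1 at 110.1, Il1rn at 15.6, Il1b at 5.56, Il1rap at 5.54, Il1r1 at 3.54, Il1a at 3.05, Il18 at 1.91, Il33 at 0.507, Casp1 at 0.370 and Nlrp3 at 0.263. There the ranges of Il1b and Il1rap, of Il1r1 and Il1a, of Il33 and Casp1, and of Casp1 and Nlrp3 overlapped. The top and bottom of the order were the same in both groups, whereas Il1b stood at place 6 in Prune2 siRNA cells and at place 3 in control siRNA cells.

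Il1r1 and Il1rl1 belong to a run of 6 receptor genes within 477.6 kb of chromosome 1, and the tested neighbours had log2 fold changes of 0.04 to 0.26. Il18r1, the ligand-binding chain of the interleukin-18 receptor, rose to 90.2 ± 4.20 CPM in Prune2 siRNA cells, against 75.5 ± 2.89 CPM in control siRNA cells (log2 fold change 0.26, SE 0.05, adjusted p = 0.000289), a call that held in all 13 alternative settings. Its partner Il18rap had 116 ± 1.90 CPM in Prune2 siRNA cells and 108 ± 1.62 CPM in control siRNA cells (log2 fold change 0.10, SE 0.04, adjusted p = 0.114). Il1rl2, the interleukin-36 receptor, had a log2 fold change of 0.04 (SE 0.17, adjusted p = 0.940). Il1r2, the decoy receptor for interleukin-1, had 2, 2 and 0 counts in the Prune2 siRNA libraries and 2, 3 and 2 in the control siRNA libraries and was too low to test. Of the 8 other receptors and decoys of the family that were listed, 5 were tested, 1 (Il18r1) rose and 0 fell. Their median log2 fold change was 0.10, against 0.00 over all genes tested. Of 5 other ligands of the family only Il36a was tested, with a log2 fold change of 0.99 (SE 0.41, adjusted p = 0.158). This list had 0 calls in edgeR, DESeq2 and limma-voom, and 1 gene at an unadjusted p under 0.05 in edgeR.

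**Figure D3:**
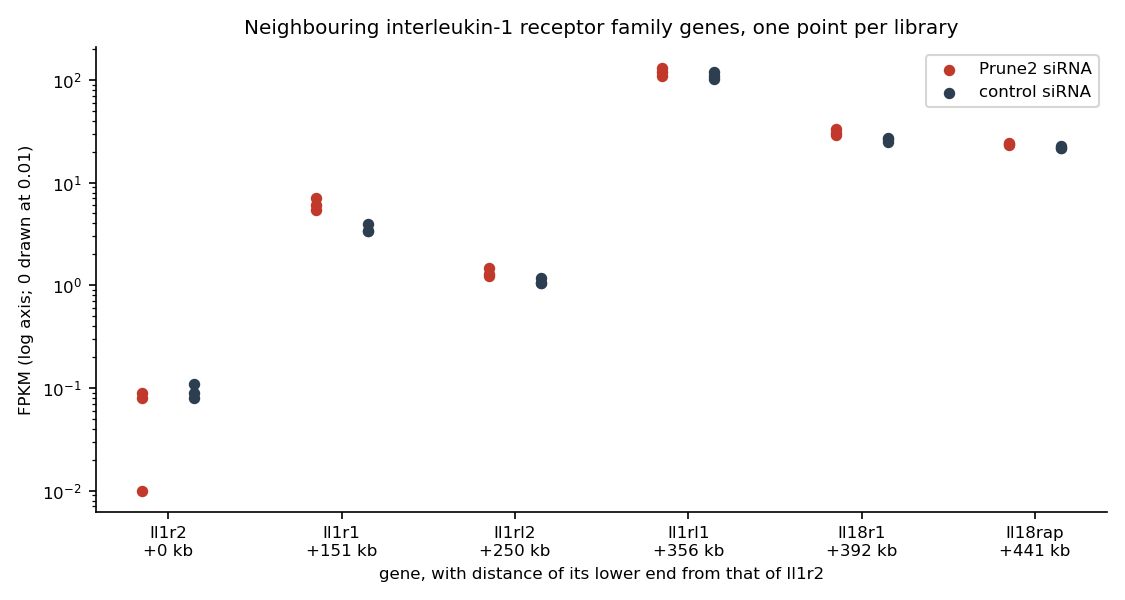
FPKM (log axis, with a value of 0 drawn at 0.01) of the 6 interleukin-1 receptor family genes of chromosome 1 in their order along it, with the distance in kb of each from Il1r2, 1 point per library. The Prune2 siRNA points of Il1r1 lie between 5.36 and 7.07 and its control siRNA points between 3.34 and 3.93, which do not overlap. The points of Il1rl2, Il18r1 and Il18rap do not overlap between groups either, whereas those of Il1r2 and Il1rl1 do.

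The genes that carry the signal from the receptors to NF-κB showed no called change. All 18 listed genes, among them Myd88 and Irak4, were tested and 0 were called by edgeR, DESeq2 or limma-voom, beside 10.3% of all genes called by edgeR, with 1 at an unadjusted p under 0.05 in edgeR. That gene is Tab2, an adaptor of the kinase TAK1, at 180 ± 6.94 CPM in Prune2 siRNA cells and 191 ± 7.82 CPM in control siRNA cells (log2 fold change -0.08, SE 0.04, adjusted p = 0.238). The log2 fold changes ran from -0.38 to 0.06 with a median of -0.01. None of the 13 alternative settings called any of these genes. The lowest value belonged to Irak3, a kinase-dead inhibitor of the pathway that macrophages express, which had an SE of 0.36 and an adjusted p of 0.636.

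Other inflammasome and pyroptosis genes were lower where they differed. Of 21 listed, 14 were tested, 6 fell and 0 rose, or 42.9% called against 10.3% of all genes tested. The median log2 fold change was -0.25. Earlier results of these data were known when the list was chosen, so nothing is read from this share. Naip2, a sensor of bacterial secretion proteins, fell 4.77-fold to 0.767 ± 0.193 CPM in Prune2 siRNA cells, against 3.69 ± 0.314 CPM in control siRNA cells (log2 fold change -2.25, SE 0.25, adjusted p = 2.42e-07). Aim2, a sensor of cytosolic DNA, fell to 0.210 ± 0.0778 CPM in Prune2 siRNA cells, against 0.788 ± 0.0104 CPM in control siRNA cells (adjusted p = 0.00510). Naip5, a sensor of flagellin, fell to 0.178 ± 0.0424 CPM in Prune2 siRNA cells, against 0.632 ± 0.108 CPM in control siRNA cells (adjusted p = 0.0150). Aim2 and Naip5 reached the level of the low-count filter in control siRNA libraries only. A gene as low in both groups would not have been tested. The Naip genes are related copies, and how reads were split between them is not given in the sources used here. Txnip, a thioredoxin-binding protein reported to engage NLRP3, fell to 206 ± 17.9 CPM in Prune2 siRNA cells, against 236 ± 1.12 CPM in control siRNA cells (log2 fold change -0.19, adjusted p = 0.00520). The adaptor Pycard, which joins NLRP3 to caspase-1, had 0.545 ± 0.120 CPM in Prune2 siRNA cells and 0.689 ± 0.223 CPM in control siRNA cells (adjusted p = 0.746). The pore-forming substrate of caspase-1, Gsdmd, had 1.22 ± 0.729 CPM in Prune2 siRNA cells and 1.86 ± 0.317 CPM in control siRNA cells (adjusted p = 0.371). Leaving out Prune2 siRNA library 3 or control siRNA library 2 cut the count of calls in this list to 3. The call of Naip2 held in all 13 alternative settings, whereas Aim2 was not called without Prune2 siRNA library 3 or in the 2 fits on FPKM. Naip5 was not called without Prune2 siRNA library 2, without control siRNA library 2 or in DESeq2, and Txnip was not called in the 2 fits on FPKM.

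The last list held genes that interleukin-1 is known to induce in kidney or stromal cells. Of 26 listed, 21 were tested, 7 rose and 1 fell, or 38.1% called against 10.3% of all genes tested. The median log2 fold change was 0.11. This list too was chosen with earlier results of these data known, and nothing is read from its share. Lcn2 (lipocalin-2), an iron-siderophore carrier of injured tubules, rose 1.53-fold to 748 ± 2.58 CPM in Prune2 siRNA cells, against 488 ± 19.1 CPM in control siRNA cells (adjusted p = 3.49e-12). C3, the central complement protein, rose to 56.2 ± 4.67 CPM in Prune2 siRNA cells, against 24.5 ± 3.72 CPM in control siRNA cells (log2 fold change 1.19, SE 0.08, adjusted p = 3.50e-11). Nfkbiz, a nuclear IκB protein that interleukin-1 induces, rose to 93.9 ± 10.1 CPM in Prune2 siRNA cells, against 77.3 ± 2.48 CPM in control siRNA cells (adjusted p = 0.00108). Birc3, an NF-κB target that restrains cell death, rose to 29.2 ± 1.83 CPM in Prune2 siRNA cells, against 23.8 ± 1.23 CPM in control siRNA cells (adjusted p = 0.00366). Mmp13, a collagenase, fell 4.51-fold to 4.85 ± 0.258 CPM in Prune2 siRNA cells, against 21.9 ± 2.29 CPM in control siRNA cells (log2 fold change -2.17, SE 0.10, adjusted p = 7.91e-14). Members without a call included the feedback inhibitors Nfkbia and Tnfaip3, at log2 fold changes of 0.01 and 0.00, and the cytokine Il6, at 0.55 (SE 0.36, adjusted p = 0.450). The calls of Lcn2, C3 and Mmp13 held in all 13 alternative settings, those of Nfkbiz and Birc3 were lost in the 2 fits on FPKM, and leaving out Prune2 siRNA library 1 cut the count of calls in this list to 5. The members were not measured with interleukin-1 added or blocked, so these values do not measure a response to it.

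**Figure D4:**
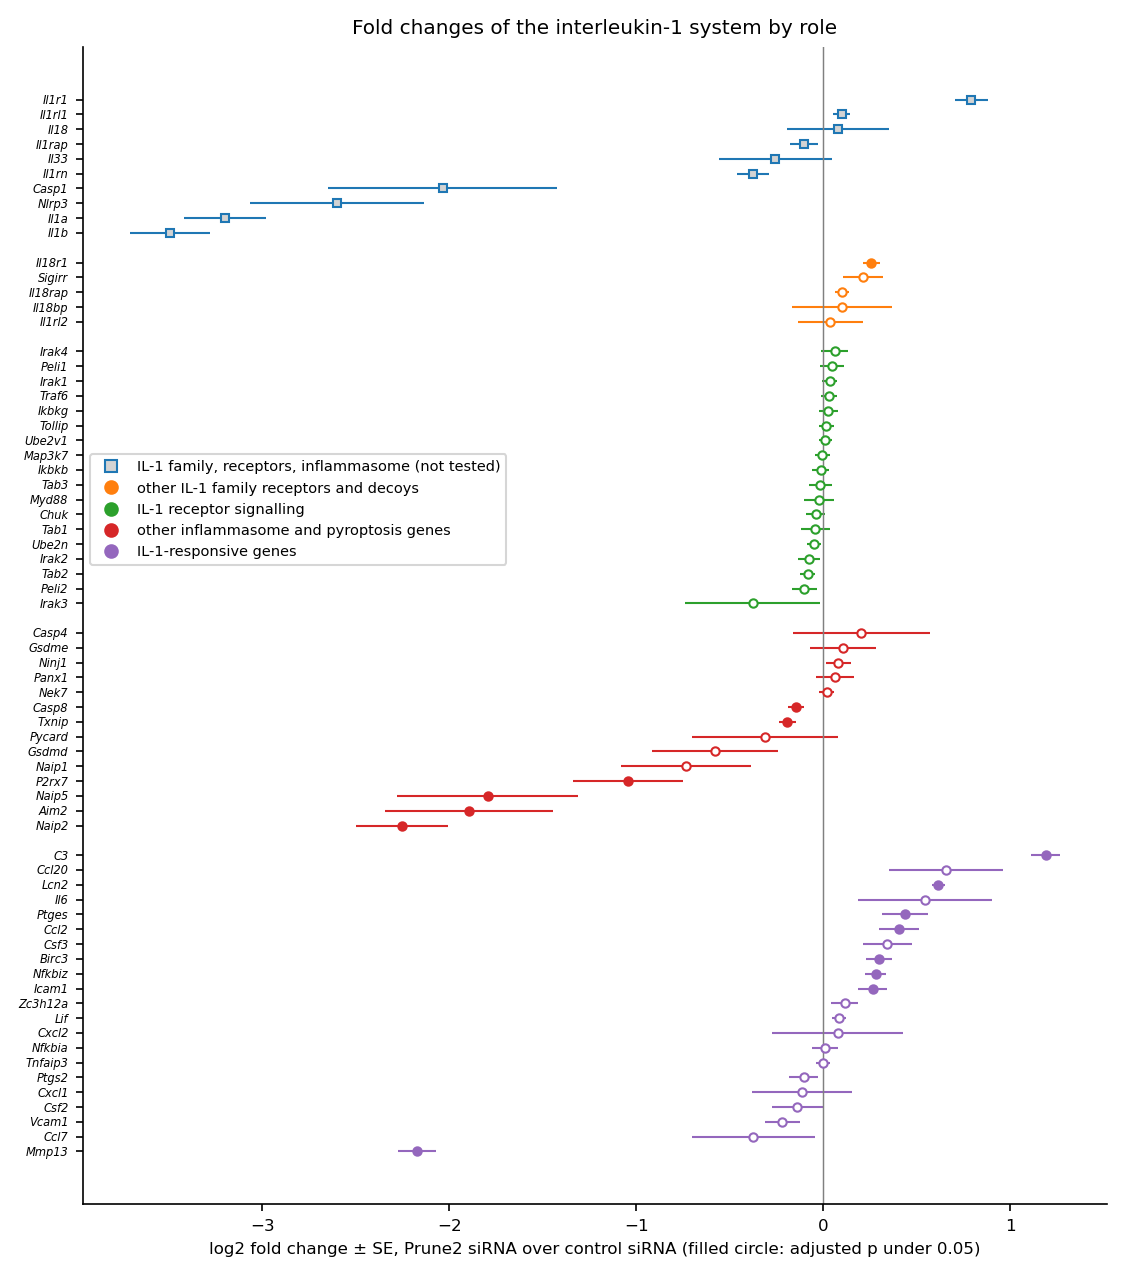
Log2 fold change with its SE, Prune2 siRNA over control siRNA, for the 10 genes of the set (squares, not tested) and for the tested genes of 4 pathway lists (circles, filled where the adjusted p was under 0.05). Il1a and Il1b lie below -3, the signalling genes lie between -0.38 and 0.06, and among the responsive genes Mmp13 alone lies below -1.

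Macrophage genes moved with the agonists and the inflammasome genes. Of 14 listed macrophage markers 13 were tested and all 13 fell, with a median log2 fold change of -2.62 and a range of -4.19 to -0.78. Of all genes tested 10.3% were called, and nothing is read from the macrophage share because the markers were chosen with earlier results known. Cx3cr1, Mrc1, Fcgr1 and Aif1 reached the level of the low-count filter in control siRNA libraries only. The summed level of the 14 markers was 32.2 to 36.7 CPM in the Prune2 siRNA libraries and 125 to 164 CPM in the control siRNA libraries, and Cd163 was at 0 in all but 1 library, where it had 1 count. The smallest adjusted p-values belonged to Lyz2, the macrophage lysozyme, and to the complement genes C1qc, C1qb and C1qa, with Lyz2 at 6.27 ± 0.865 CPM in Prune2 siRNA cells and 36.4 ± 6.57 CPM in control siRNA cells (adjusted p = 4.93e-14). All 6 pan-leukocyte markers fell as well, to a summed 21.3 to 26.2 CPM in the Prune2 siRNA libraries, against 78.3 to 89.9 CPM in the control siRNA libraries. Relative to the macrophage sum, Il1a and Il1b together made up 3.601, 3.52 and 4.31 percent in the Prune2 siRNA libraries, against 8.86, 8.32 and 10.9 percent in the control siRNA libraries. These percentages depend on which markers make up the sum. Csf1r, which was 2.12-fold lower in Prune2 siRNA cells, supplied 12.9 of 34.3 CPM there and 27.3 of 147 CPM in control siRNA cells, and single markers ran from 1.71-fold lower (Mertk) to 18.2-fold lower (Cx3cr1), beside 9.20-fold for Il1a and 11.3-fold for Il1b. The part of the macrophage genes in the levels of Il1a, Il1b, Nlrp3, Casp1, Il1rn and the inflammasome list was not tested.

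**Figure D5:**
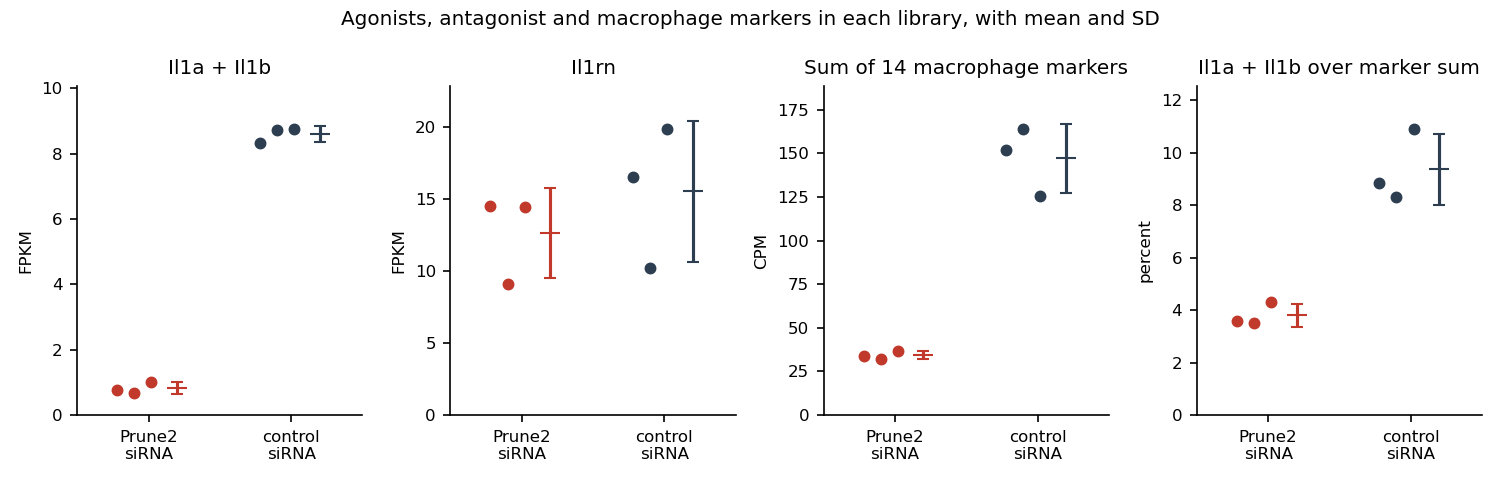
Summed FPKM of Il1a and Il1b, FPKM of Il1rn, summed CPM of 14 macrophage markers, and Il1a plus Il1b as a percentage of that sum (in CPM), in the 3 Prune2 siRNA libraries and the 3 control siRNA libraries (points, with mean and SD beside them). The agonist sum is at most 1.02 in Prune2 siRNA libraries and at least 8.32 in control siRNA libraries, and the percentage lies between 3.52 and 4.31 in Prune2 siRNA libraries and between 8.32 and 10.9 in control siRNA libraries.

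Markers of neutrophils, T, NK and B cells were near 0, while Kit in the mast cell list and Itgax and Zbtb46 in the dendritic cell list were not. The 8 neutrophil markers summed to 0.142 to 0.256 CPM in the Prune2 siRNA libraries and 0.304 to 0.391 CPM in the control siRNA libraries, with S100a9, Retnlg, Mpo and Elane at 0 in all libraries, and none could be tested. Of 8 T and NK cell markers, Cd3e, Cd3d, Cd3g, Nkg7 and Ncr1 were at 0 and only Cd4 was tested, which fell (2 counts in Prune2 siRNA cells and 52 in control siRNA cells, adjusted p = 5.74e-05). Cd4 reached the level of the low-count filter in control siRNA libraries only. All 4 B cell markers were too low to test, summing to at most 0.0944 CPM in the Prune2 siRNA libraries and 0.244 CPM in the control siRNA libraries. Of 8 mast cell markers, Cpa3, Fcer1a, Cma1 and Mcpt4 were at 0 in all libraries, and Tpsb2 and Hdc had at most 2 counts in any. Ms4a2 had 5, 8 and 7 counts in the Prune2 siRNA libraries, against 3, 15 and 12 in the control siRNA libraries, too low to test. Mast cells respond to interleukin-33, and their part in the Il1rl1 level, which was at least 327 CPM in every library, was not tested. Kit, which other cells also express, was the mast cell marker tested and fell slightly (log2 fold change -0.30, SE 0.09, adjusted p = 0.0290), a call lost in 8 of 13 alternative settings. Of 6 dendritic cell markers 2 were tested. Itgax, which macrophages also express, fell to 2.81 ± 1.07 CPM in Prune2 siRNA cells, against 19.4 ± 3.06 CPM in control siRNA cells. Zbtb46 had 10.4 ± 0.665 CPM in Prune2 siRNA cells and 10.0 ± 1.42 CPM in control siRNA cells, and the list had a summed 12.9 to 13.8 CPM in the Prune2 siRNA libraries and 25.03 to 32.9 CPM in the control siRNA libraries.

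Markers of other kidney cell types moved in both directions. Nothing is read from their counts of calls, beside 10.3% of all genes called, because these lists too were chosen with earlier results known. Endothelial markers, whose cells respond to interleukin-1, had 5 of 8 genes lower and summed to 77.1 to 80.3 CPM in the Prune2 siRNA libraries, against 104 to 112 CPM in the control siRNA libraries. Of 10 tubular epithelial markers 7 were tested, 3 rose (Slc12a3, Cdh16 and Pax8) and Lrp2 fell. Slc12a3, which carries sodium and chloride in the distal tubule, rose 2.69-fold to 5.32 ± 1.26 CPM in Prune2 siRNA cells, against 1.99 ± 0.270 CPM in control siRNA cells. The tubular list as a whole summed to 1911 to 2006 CPM in the Prune2 siRNA libraries and 1925 to 1944 CPM in the control siRNA libraries. Its summed FPKM was 650 to 691 in the Prune2 siRNA libraries and 643 to 654 in the control siRNA libraries. The groups overlapped on both scales, and the part of epithelial genes in the levels of Il1r1, Lcn2 and C3 was not tested. Of 9 fibroblast markers 7 were tested and 3 fell (Vim, Col1a1 and Col1a2, the last not called in 5 of 13 alternative settings), with summed FPKM of 227 to 244 in the Prune2 siRNA libraries and 312 to 336 in the control siRNA libraries. Vim alone supplied a mean of 182 FPKM to that sum in Prune2 siRNA cells and 260 in control siRNA cells. Pdgfra, Pdgfrb, Col3a1 and Thy1 were tested and not called, with log2 fold changes of -0.04, 0.07, -0.09 and -0.22. Of 5 pericyte and 4 podocyte markers, 3 were tested in each list and 1 in each fell.

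By Pearson correlation of log2(CPM + 0.5) over the 6 libraries, the genes most like Il1b among 12384 compared were Cpm, a carboxypeptidase (r = 0.999), Kif26a (r = 0.997), Nt5e, the ectonucleotidase CD73 (r = 0.997), Sirpb1c (r = 0.996) and Inpp5d, a phosphatase of blood cells (r = 0.996). For Il33, whose groups overlapped, they were Trim15 (r = 0.986), Atf6 (r = 0.983), mt-Nd3 (r = 0.975), Gemin2 (r = 0.974) and Hnrnph2 (r = 0.973). These are descriptions over 6 libraries that share the same 2 groups, and no p-value is attached. Il33 had only 17 to 28 counts in each library. Each list keeps the highest of 12384 correlations over 6 points, which favours high values, and no link is read from either list.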

How the data were processed

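GRCm38 and mm10 are the builds that the submitters' processing notes name. The aligner, counting tool and strand setting were not given in the sources used here. In 1 table the authors deposited a raw read count and an FPKM value per gene and library, per the file headers. The test on deposited counts used edgeR 4.0.16 under R 4.3.3 (TMM, filterByExpr, glmQLFit, glmQLFTest, Benjamini-Hochberg over 13248 genes, adjusted p under 0.05), after a test of the same steps on simulated counts. CPM used TMM-scaled library sizes. The alternatives were DESeq2 1.42.0, limma-voom (limma 3.58.1), upper-quartile scaling, no filter, log2(FPKM + 1) and log2(FPKM + 0.1) with limma, a replicate block, and leaving out each library. The 10 genes, the lists and the markers were chosen with earlier results of these data known, so counts of calls among them are descriptions only. Genes named are the 10, Prune2, up to 4 called genes per list and direction with the smallest adjusted p, and the 5 most like Il1b and Il33. Irak3, Myd88, Irak4, Tab2, Pycard, Gsdmd, Nfkbia, Tnfaip3, Il6 and some markers (such as Pdgfrb, Csf1r, Mertk, Cx3cr1, Zbtb46) were named after their values were seen. Nothing in the labels says that replicates were separate cultures, so p-values cover only the spread between libraries, possibly technical. Replicate pairs differed by a chi-square of 2.57 to 3.92 per degree of freedom, above sampling noise. Same-numbered libraries did not deviate together (correlations of 0.0506, -0.0122 and 0.0251). Positions came from GENCODE M21, which held 22219 of the 22274 identifiers, and promoters from RefSeq.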

Additional observations from a re-analysis of the deposited data

How the results depend on the processing

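Of 273 values recomputed under alternatives, 30 moved by more than the spread, or by over 1.5 times for a count, and 0 changed direction after a call. The fits on log2(FPKM + 0.1) and log2(FPKM + 1) called 756 and 752 genes, against 1364 with counts, 326 and 326 of them higher (591 with counts) and 430 and 426 lower (773 with counts). They called 1 and 1 of the other inflammasome genes (6 with counts) and 3 and 3 of the responsive genes (8 with counts), and gave Prune2 log2 differences of -0.43 and -0.24 that were not called. Leaving out 1 library gave 3 to 6 calls among the other inflammasome genes and 5 to 8 among the responsive genes. The log2 fold change of Il1a ran from -3.25 to -3.11 and that of Il1b from -3.78 to -3.26 over the fits on counts, against -1.60 and -2.14 on log2(FPKM + 1), where the added 1 exceeds the level in Prune2 siRNA cells. Il1rn was not called in either FPKM fit, Nlrp3 not in log2(FPKM + 1) and Casp1 not in 7 of 13 alternatives, and Il18 changed sign in 2. With a replicate block 1490 genes were called. The numbers are shared labels only, and not every library correlated best with its own number. Where no cause is named, the cause was not tested. Depth limits Casp1 and Nlrp3, whose Prune2 siRNA libraries held at most 5 counts.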
